A study of Mus musculus with 4 samples.

Results

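The inside of the Epha4 domain was followed as 147 bins of 10 kb on chromosome 1, from 76390001 to 77860000 in build mm9, a stretch of 1470 kb. Its members were all pairs of these bins at least 20 kb apart, which makes 10585 pairs of the 500500 in the capture Hi-C map. Capture Hi-C counts how often 2 genome segments are ligated together after crosslinking, here in a region enriched with probes. Mouse distal limb buds, the outer part of the early limb that forms the hand or foot, were taken at E11.5. Wild type (WT) was set against InvF, a mutant in which 1070 kb beside the domain, from 74830001 to 75900000, run in the opposite order. The inverted interval, located from the map itself, ended 490 kb before the first bin of the interior, so the interior bins keep the same order in both libraries. The ends of the interval are the start shared by the DelB and DelBs deletions and the end of DelBs, and need not be the ends of the domain. These other mutants lack the interval, and their maps served for the parts of the map left untouched, for the spread between libraries and for a count of what they hold in the interval. How many embryos went into a library, and their strain, are not given in the sources used here.

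Vertebrate chromosomes fold into domains within which segments meet often, separated by boundaries that few contacts cross. Such boundaries are commonly bound by CTCF and cohesin, and enhancers mostly act on genes of their own domain. Epha4 encodes an ephrin receptor tyrosine kinase with roles in cell sorting and axon guidance, and its domain in the limb is known as a large gene desert with limb enhancers. The mutants are described in the published work as homozygous, though the labels give only the genotype names. As published for these alleles, Epha4 is lost in DelB and DelBs, and InvF brings Wnt6, which encodes a secreted signal of the Wnt family, closer to the domain. In the GRCm38 RefSeq gene table Epha4 had 0 protein-coding genes between it and Slc4a3 on one side and 0 between it and Pax3 on the other. Where Epha4 and its start lie among the mm9 bins was not analysed here.

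Each genotype had 1 library, so the spread between embryos is unknown and no test between genotypes was made. Intervals in parentheses are 95% intervals and cover counting error alone. The WT library held 5155274 counts and the InvF library 6073471. The interior held 436349 counts in WT and 538284 in InvF, with a count in 10584 and 10585 of the 10585 pairs and a median of 26 and 33 counts per pair. InvF counts were divided by 1.24, the ratio of the libraries over pairs 20 kb to 2 Mb apart in parts of the map that no mutant rearranges, none of them in the interior. The total of all counts would give 1.18. Interior bins were covered more deeply than untouched bins, with a median of 11347 against 8585 counts per bin in WT and 13265 against 10329 in InvF. For that reason levels are given from raw counts and from the authors' KR balanced values, in which all bins have about the same sum.

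The interior was divided in both libraries by a single strong boundary, after 77510000. It left a left sub-domain of 1120 kb, from 76390001, and a right sub-domain of 350 kb, up to 77860000. This position was taken from an earlier WT profile of these data, so its low WT score describes that choice, while the InvF map was not used to place it. In the 399 pairs of bins within 200 kb on each side of the boundary, the mean count was 27.4 in WT and 27.4 in InvF after scaling. The same window placed 200 kb earlier held 69.4 in WT and 66.3 in InvF, and placed 200 kb later it held 58.5 and 58.6. The insulation score, the log2 of such a window's mean relative to the mean over the map, was therefore low at the boundary, at -0.72 in WT and -0.73 in InvF. It was the lowest of the 146 positions inside the interior in WT. In InvF the lowest score, -0.74, lay 10 kb further, after 77520000. The depth of the minimum, measured from the highest score within 200 kb on the shallower side, was 1.10 in WT and 1.12 in InvF, against 0.2 required for a boundary. With balanced values the scores at the same position were -1.05 in both libraries.

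Away from that position the 200 kb window found no boundary inside the interior in either library. The score was -0.11 in both libraries after 76600000 and rose to 0.66 after 77280000 in WT, the highest of the interior, and to 0.55 at the same place in InvF. Beyond the interval it fell again, to -0.76 in both libraries after 77940000, lower than at the main boundary, so the right sub-domain had a low score on both sides. Across the 146 positions InvF minus WT had a mean of -0.013 and an SD of 0.049, against -0.024 and 0.063 over 616 untouched positions elsewhere. The difference was highest after 77450000, 60 kb before the boundary, where WT stood at -0.13 and InvF at -0.010, a difference of 0.12. Balanced values gave 0.12 there too. It was lowest after 77290000, at -0.11 (0.66 in WT and 0.54 in InvF), or -0.059 with balanced values. Untouched positions spanned -0.21 to 0.098, so the highest difference of the interior lay slightly outside their range and the lowest inside it.

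**Figure D1:**
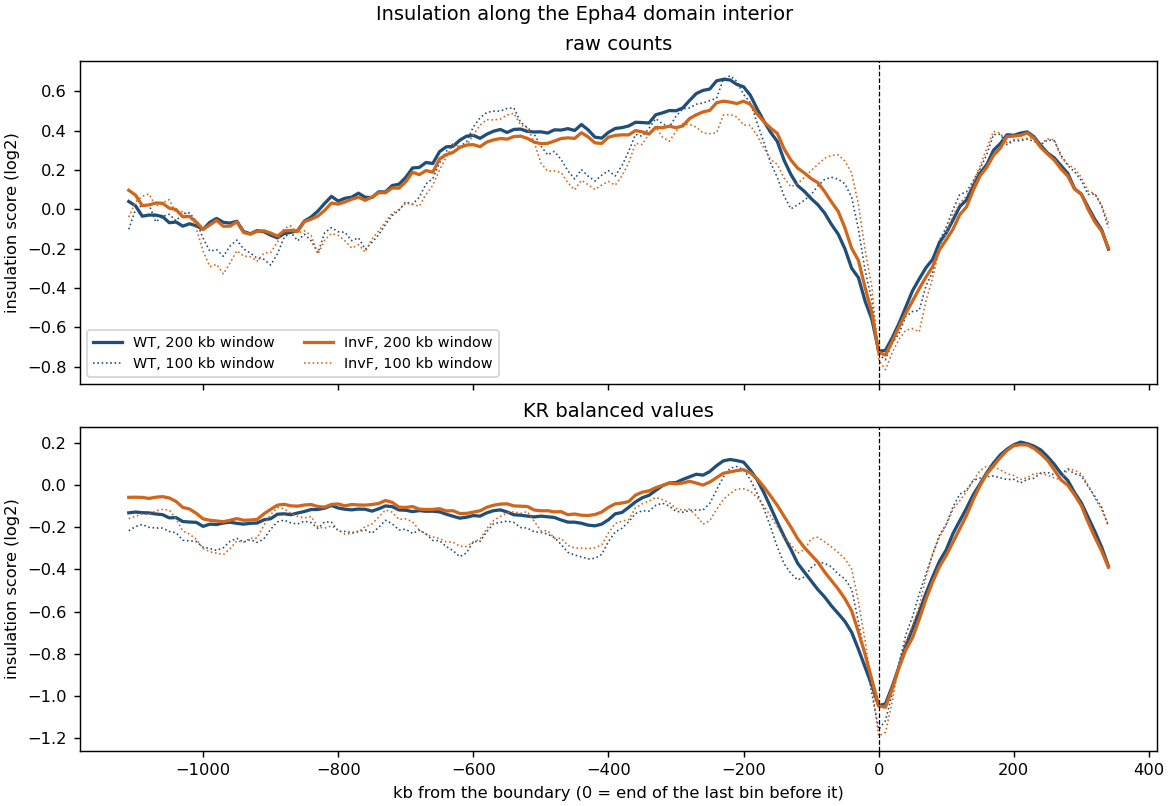
Insulation score (log2) along the interior in WT (blue) and InvF (orange) against distance from the boundary in kb, from raw counts (top) and KR balanced values (bottom); solid lines use a 200 kb window and dotted lines a 100 kb window. Both libraries have their deepest minimum at or within 10 kb of the boundary, at -0.72 in WT and -0.74 in InvF with the 200 kb window on raw counts.

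Finer steps appeared with a 100 kb window. WT then had 4 boundaries in the interior, after 76610000, 76680000, 77090000 and 77520000, with depths of 0.31, 0.20, 0.37 and 1.15. InvF also had 4, after 76540000, 76680000, 77060000 and 77520000, with depths of 0.24, 0.22, 0.34 and 1.21. The boundaries after 76680000 and 77520000 were at the same position in both. The step near 77090000 differed by 30 kb between the libraries, and the remaining one by 70 kb. With balanced values and the same window only the main boundary passed the required depth in WT. There the step after 77080000 had a depth of 0.18 in both libraries, and InvF kept a minimum after 76540000 with a depth of 0.22. The finer steps were therefore shallow and near the limit, while the main boundary passed with every window and with both kinds of values. A 400 kb window placed it after 77510000 in both libraries, with depths of 0.43 in WT and 0.40 in InvF.

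Contacts across the boundary were about as frequent, relative to contacts within the sub-domains, in InvF as in WT. At 50 to 100 kb the mean count per pair across the boundary was 51.1 in WT and 50.8 in InvF after scaling, against 100.4 and 97.9 within the left sub-domain and 98.5 and 98.2 within the right one. At 100 to 200 kb it was 29.6 and 29.3 across, 58.0 and 57.2 on the left and 59.4 and 59.4 on the right. Pairs that cross the boundary thus stood at roughly the same fraction of the within-sub-domain level in both libraries. Matched at each distance and taken over all distances that both kinds of pair reach, that fraction was 0.579 in WT (0.573 to 0.586, from 58018 counts across) and 0.575 in InvF (0.569 to 0.581, from 72595). InvF relative to WT was 0.992 (0.977 to 1.01), a ratio in which the library scale cancels. With balanced values the fractions were 0.618 and 0.613.

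The separation was not equal at all distances. The fraction was 0.548 in WT and 0.518 in InvF at 20 to 50 kb, 0.531 and 0.538 at 50 to 100 kb, 0.526 and 0.526 at 100 to 200 kb, and 0.539 and 0.554 at 200 to 500 kb. It rose to 0.648 (0.638 to 0.658) and 0.632 (0.623 to 0.641) at 500 to 1000 kb, where all pairs within come from the left sub-domain. Beyond 1000 kb it was 0.503 and 0.483, with only 78 pairs within. With balanced values it was 0.483 and 0.440 at 20 to 50 kb, 0.674 and 0.662 at 500 to 1000 kb, and 0.693 and 0.684 beyond. The drop beyond 1000 kb was thus seen in raw counts alone. The difference between the libraries was largest in size at 20 to 50 kb, where InvF relative to WT was 0.945 (0.869 to 1.03, only 9 pairs across). Its counting interval left out 1 at 200 to 500 kb, at 1.03 (1.005 to 1.05), and at 500 to 1000 kb, at 0.976 (0.955 to 0.996), on opposite sides of 1.

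**Figure D2:**
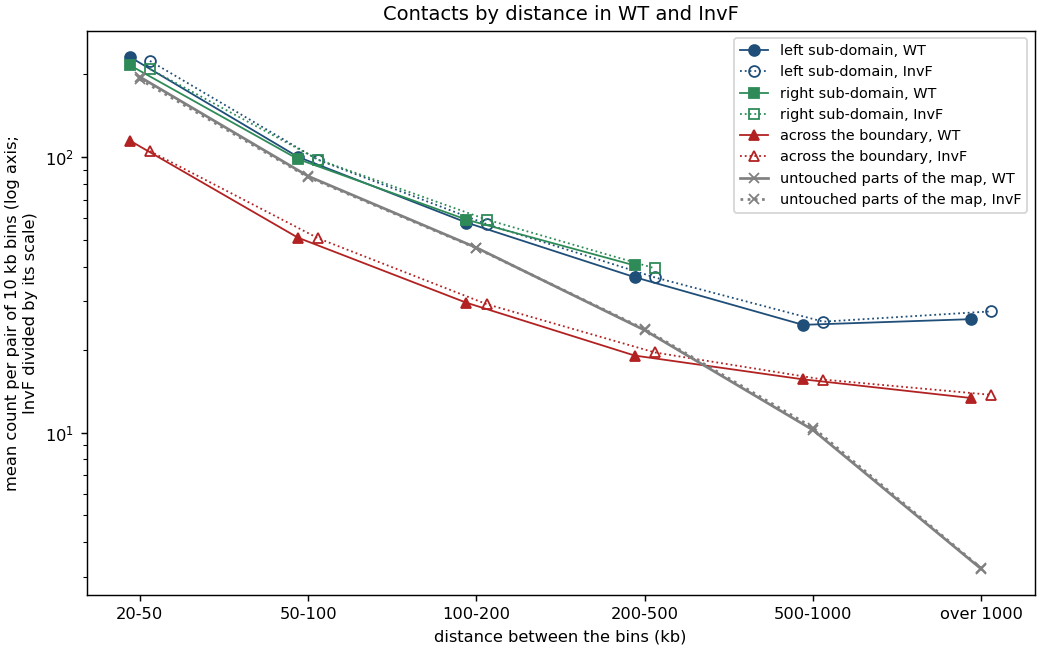
Mean count per pair of 10 kb bins (log axis; InvF divided by its scale) against distance between the bins in kb, for pairs within the left sub-domain (circles), within the right sub-domain (squares), across the boundary (triangles) and in untouched parts of the map (crosses); filled symbols and solid lines are WT, open symbols and dotted lines InvF. Counts across the boundary lie below those within both sub-domains at every distance they share, and interior counts fall more slowly with distance than untouched ones.

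Contacts inside the domain faded slowly with distance. In the left sub-domain the mean count fell from 232 at 20 to 50 kb to 24.6 at 500 to 1000 kb in WT, and from 224 to 25.3 in InvF. Untouched parts of the map fell from 196 to 10.2 in WT and from 192 to 10.4 in InvF over the same bands. On log10 scales the slope from 50 kb to 1 Mb was -0.54 in the left sub-domain of WT and -0.53 in that of InvF, against -0.94 and -0.93 in untouched parts. From 50 to 300 kb the right sub-domain had a slope of -0.67 in WT and -0.70 in InvF. Observed over expected, where the expected level is the mean of untouched pairs of the same library at the same distance, therefore rose along the distance axis. Over the whole interior it went from 1.15 (1.14 to 1.16) in WT and 1.14 (1.13 to 1.14) in InvF at 20 to 50 kb to 2.46 (2.42 to 2.50) and 2.48 (2.45 to 2.51) beyond 1000 kb. Balanced values gave 0.840 and 0.852 at the short end and 1.94 and 1.95 at the long end. The long-range excess was thus present with both kinds of values, whereas the short-range level lay above the expected one in raw counts and below it after balancing.

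Across the boundary this rise passed through the expected level. Observed over expected was 0.637 (0.598 to 0.677) in WT and 0.594 (0.561 to 0.629) in InvF at 20 to 50 kb, 0.853 and 0.867 at 200 to 500 kb, and 2.34 and 2.35 beyond 1000 kb. The corresponding balanced values were 0.410 and 0.379, then 0.605 and 0.630, and finally 1.90 and 1.90. Far apart, the left and right sub-domains thus met more often than untouched segments at that distance, although the boundary lay between them. Over all distances the left sub-domain stood at 1.37 times the expected level in both libraries, the right one at 1.16 in WT and 1.15 in InvF, and pairs across at 1.19 in both. With balanced values these became 0.960 and 0.987, 0.952 and 0.956, and 0.890 and 0.904, all below 1.

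**Figure D3:**
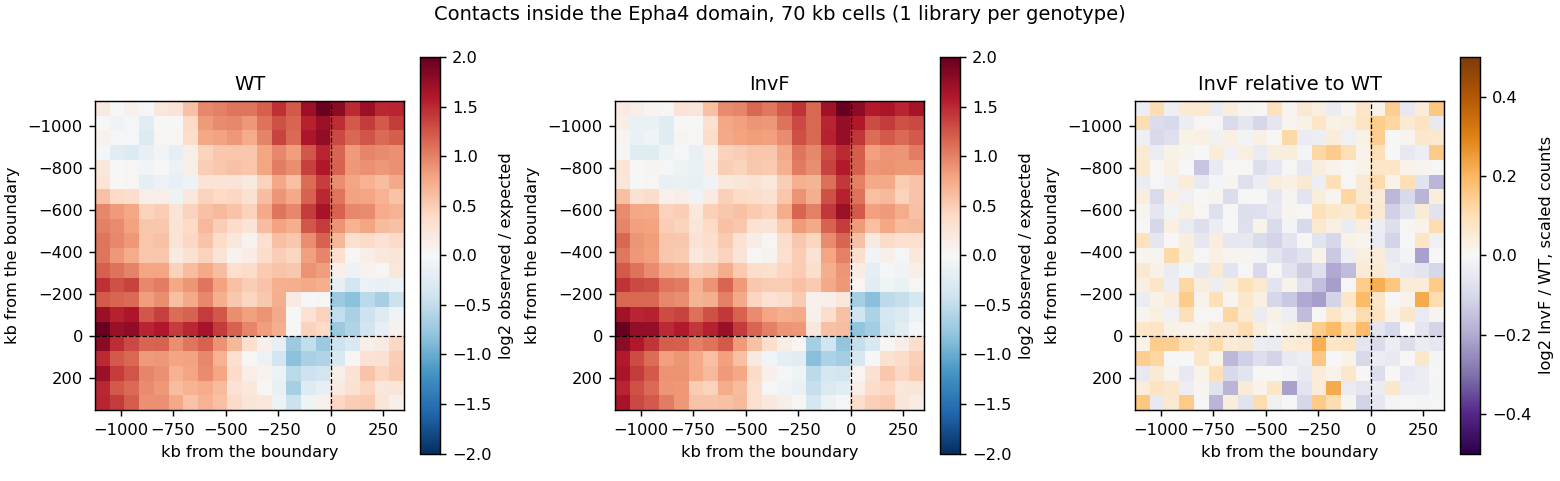
Log2 observed over expected in cells of 70 kb by 70 kb for WT (left) and InvF (middle), and log2 of InvF over WT from scaled counts (right); axes give kb from the boundary, dashed lines mark it, and the colour scale of the right panel spans a smaller range. WT and InvF cells run from -0.83 to 1.98 and from -0.83 to 2.03, with a dark stripe before the boundary, while their ratio stays between -0.22 and 0.23.

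Which part of the left sub-domain met the right one depended on position and not on nearness alone. The left sub-domain was divided for this at the WT step after 77090000, into segment A of 700 kb and segment B of 420 kb next to the boundary, a division made after the values were seen. The right sub-domain is called segment C. Pairs of B and C, the neighbours across the boundary, stood at 0.805 times the expected level in WT (0.796 to 0.814) and 0.807 in InvF (0.799 to 0.815). Pairs of A and C, further apart, stood at 1.92 and 1.89. Over the shared range of 500 to 760 kb, A with C was at 1.66 (1.63 to 1.69) in WT and 1.61 (1.59 to 1.64) in InvF. B with C was at 1.08 (1.05 to 1.11) and 1.04 (1.01 to 1.06). Pairs of A and C lay further out in that range, with 442 of 567 at 600 to 760 kb against 153 of 378. At 500 to 600 kb A with C was at 1.53 and 1.47, and B with C at 1.02 and 0.984. At 600 to 760 kb A with C was at 1.71 and 1.67, and B with C at 1.19 and 1.13. Over the whole range balanced values kept that order, with 1.17 and 1.17 for A with C and 0.760 and 0.749 for B with C. Within the left sub-domain A with B stood at 2.15 in WT and 2.18 in InvF over those distances, and contacts over the step between A and B were not reduced to the level seen over the main boundary. Pairs within 300 kb of the step after 77090000 on each side were at 1.46 times the expected level in WT and 1.45 in InvF, while those within 300 kb of the main boundary were at 0.719 and 0.729.

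The last bin before the boundary, 77500001 to 77510000, had the most frequent long-range contacts with the left sub-domain. Bins differ in how far their partners lie, and the level rises with distance, so neighbours compare best. Over partners at least 200 kb away it stood at 3.19 times the expected level in WT and 3.32 in InvF, the highest of 147 bins in each library. The median bin stood at 1.59 in WT and 1.61 in InvF. After balancing it was again the highest in both, at 1.71 and 1.79, against medians of 1.14 and 1.18. Its neighbours came next with balanced values: 77490001 to 77500000 had 1.63 and 1.72, and 77510001 to 77520000, the first bin beyond the boundary, had 1.59 and 1.74. The level fell away on the right side, to 1.14 and 1.19 in the bin 50 kb past the boundary bin and to 0.890 and 0.931 in the one 100 kb past it. In raw counts other bins came close, such as 76500001 to 76510000 at 2.98 in WT and 2.67 in InvF, but balancing brought that one to 1.28 and 1.33.

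**Figure D4:**
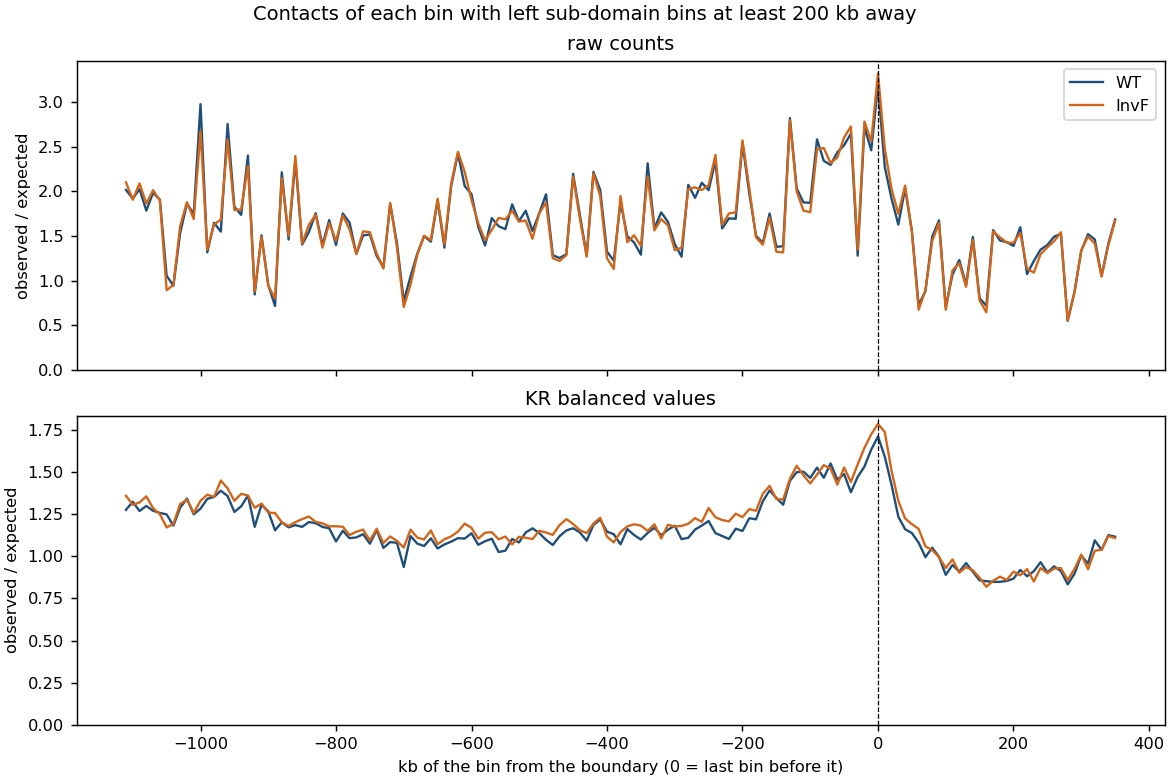
Observed over expected of each 10 kb bin with left sub-domain bins at least 200 kb away, against the bin's distance from the boundary in kb, in WT (blue) and InvF (orange), from raw counts (top) and KR balanced values (bottom). The bin at 0 kb is the highest in all 4 profiles, at 3.19 and 3.32 with raw counts and 1.71 and 1.79 with balanced values.

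Among 378 pairs of 50 kb windows at least 100 kb apart, the highest level in raw counts joined the start of the interval to the boundary. The first window, 76390001 to 76440000, and the window over the boundary, 77490001 to 77540000, held 692 counts in WT and 899 in InvF, which is 4.44 times the expected level (4.11 to 4.78) and 4.54 times (4.24 to 4.84) at 1100 kb apart. The first window met 77440001 to 77490000 at 4.00 and 4.41 times. The window over the boundary met 76490001 to 76540000 at 3.99 and 4.06 times. Balanced values gave 2.79 and 2.82, 2.38 and 2.58, and 2.80 and 2.85 for these pairs in turn. With them the window over the boundary met 76440001 to 76490000 at 2.83 and 2.84, above the first of these pairs. Of the 10 pairs highest in WT, 6 held the first window and 4 the window over the boundary, with 1 pair holding both. Across the boundary with both windows clear of it lay 3 of the 10, and 9 were at least 900 kb apart. Of these 10, 7 were among the 10 highest of InvF and 6 among the 10 highest of WT with balanced values. The first window also met all 6 windows of the right sub-domain at 2.93 to 3.50 times the expected level in WT and at 3.02 to 3.43 times in InvF, or at 2.05 to 2.42 and 2.02 to 2.47 times with balanced values.

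The distances that both sides reach were 100 to 300 kb. At each of them in InvF, the window over the boundary met its left more than its right. In WT it did so except at 200 kb, where the left was at 1.00 and the right at 1.15 times the expected level. Balanced values kept this order. At 100 kb the left was at 1.09 in WT and 1.22 in InvF, and the right at 0.714 and 0.733. Medians over these distances lay closer together. With 5 windows on its left the median was 1.09 times the expected level in WT and 1.22 in InvF, and with 5 on its right 1.03 and 1.05. Balanced values gave 0.699 and 0.770 on the left and 0.728 and 0.724 on the right. The highest levels of the window over the boundary belonged to left windows further away. The lowest of the 378 pairs lay across the boundary close to it, 77340001 to 77390000 with 77590001 to 77640000, at 0.487 in WT and 0.520 in InvF. Over the 378 pairs the log2 levels of both libraries had a Pearson r of 0.988, a description over windows that share bins and libraries. Over 1513 untouched pairs with at least the same 222 counts r was 0.989. Their WT levels spanned a wider range, 0.262 to 10.6 against 0.487 to 4.44 in the interior, so the r values are not directly comparable. The SD of the log2 difference between the libraries was 0.090 in the interior and 0.122 in the untouched pairs.

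Whether the inversion altered the interior was asked from the InvF to WT ratio. Over all members it was 0.992 (0.988 to 0.996), with 0.990 in the left sub-domain (0.985 to 0.994), 0.984 in the right one (0.973 to 0.996) and 1.01 across the boundary (0.999 to 1.02). The side of 1 had no settled direction. By the total of all counts the same ratios were 1.05, 1.04, 1.04 and 1.07, and with balanced values 1.02, 1.02, 0.991 and 1.03. A trend with distance, from 0.967 (0.958 to 0.975) at 20 to 50 kb to 1.03 (1.01 to 1.05) beyond 1000 kb, was shared in part by untouched pairs, which went from 0.980 to 1.02 at 500 to 1000 kb and 1.01 beyond. With each distance scaled on its own the interior ratios lay between 0.987 and 1.01.

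In 100 kb blocks the interior differed little from WT. The share of blocks past 1 log2 unit was 7.78% over the 4331 blocks of the map and 0% over 790 untouched blocks outside the interior, and 0 of the 120 interior blocks passed it. Past 0.25 log2 units it was 39.8% over the map and 3.16% over untouched blocks, and 0 of 120 in the interior. Untouched blocks were shallower, with a median of 1194.5 counts in WT against 2842 in the interior, so these shares are not matched for depth. Interior ratios ran from -0.20 to 0.18 with an SD of 0.066 on the log2 scale, of which counting alone would give 0.040. The 506 untouched blocks with at least the 963 counts of the shallowest interior block had an SD of 0.087, with 0.044 from counting alone. They ran from -0.24 to 0.31. Such blocks had an SD of 0.11 between DelB and WT and of 0.14 between DelBs and WT. The spread of the interior ratios was thus no wider than that of parts of the map no mutant touches. In 50 kb blocks 7 of 464 passed 0.25 log2 units (1.51%), against 35.2% over the map and 12.2% over untouched blocks. Of these 7, 4 held the last 20 kb of the interior. The largest in size, 0.34, was 77240001 to 77290000 with 77490001 to 77540000, the window over the boundary. It held 1068 counts in WT and 1677 in InvF, and was picked as the extreme of 464. Its level was 1.42 times the expected one in WT and 1.78 in InvF, or 0.795 and 1.04 with balanced values. The shares of 50 kb blocks were not matched for depth either.

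**Figure D5:**
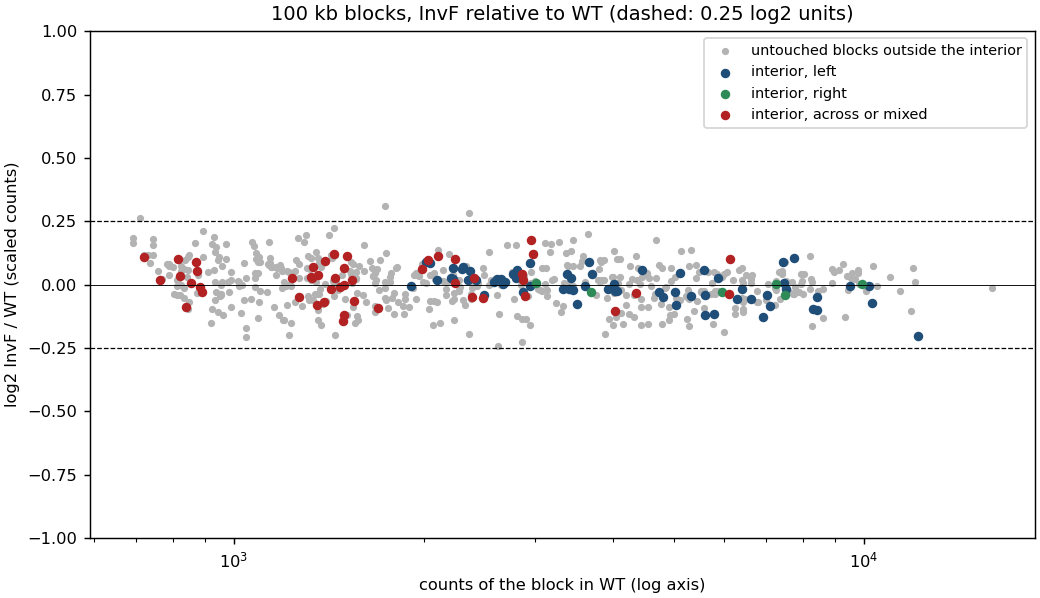
Log2 of InvF over WT (scaled counts) against the WT counts of each 100 kb block (log axis) for the 120 interior blocks, coloured by whether both bins lie left, both right, or across or astride the boundary, and for 506 untouched blocks outside the interior (grey); dashed lines mark 0.25 log2 units. All interior points lie between the dashed lines, from -0.20 to 0.18.

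The interior was also followed in 3 parts by distance from the inversion. The first 490 kb of the interior, which begin 490 kb from the inversion, had 73054 counts in WT and 89898 in InvF among their own bins, a ratio of 0.990 (0.980 to 0.999). The middle 490 kb had 0.950 (0.942 to 0.958, from 103316 and 122085 counts) and the last 490 kb 1.001 (0.991 to 1.01, from 78589 and 97793 counts). The lower middle value was not seen after balancing, where the 3 parts stood at 1.01, 1.004 and 0.998, in the order of nearness to the inversion but with no interval. Single bins ranged from 0.893 to 1.10 with a median of 0.994.

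The lowest and the highest block shared their first 100 kb, in segment B. The block of 77190001 to 77290000 with 77290001 to 77390000 was the lowest of the 120, with 12195 counts in WT and 13191 in InvF, a ratio of 0.870 (0.849 to 0.892). The block of the same first 100 kb with 77490001 to 77590000, which lies astride the boundary, was the highest, with 2965 and 4166 counts and a ratio of 1.13 (1.08 to 1.18). The next lowest was 77090001 to 77190000 with 77690001 to 77790000, at 0.904 (0.843 to 0.971), and the next highest was 77290001 to 77390000 with 77490001 to 77590000, at 1.09 (1.04 to 1.14). The other 3 of the 5 lowest had ratios of 0.916 to 0.921 and the other 3 of the 5 highest 1.08 to 1.09. Within the 200 kb from 77190001 to 77390000, a stretch chosen after the values were seen, the ratio was 0.912 (0.897 to 0.927), and with the 120 kb between it and the boundary it was 1.07 (1.04 to 1.09). These 120 kb among themselves stood at 1.09 (1.06 to 1.12). Balanced values gave 0.966, 1.09 and 1.07 for the same areas, beside 1.02 for the whole interior. For the lowest and the highest block they gave 0.918 and 1.16. With the right sub-domain the 200 kb stood at 1.06 (1.04 to 1.09), or 1.10 balanced. With the rest of the left sub-domain before it the ratio was 0.993 (0.982 to 1.004), or 1.04 balanced. On the log2 scale the lowest block stood at -0.20 and the highest at 0.18. Of 140 untouched blocks with 2000 to 4500 counts in WT, a range that holds the highest block, 2 had a higher ratio, up to 0.28. None of the 32 untouched blocks with at least 8000 counts was as low as the lowest block, and they ran from -0.16 to 0.11. The other blocks within 77190001 to 77390000, at -0.098 and -0.057, lay inside that range. The lowest block was picked as the extreme of 120.

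Coverage per bin had a similar pattern in the libraries. Counts with other interior bins ran from 2136 to 9698 per bin in WT and from 2636 to 12092 in InvF. The 5 bins lowest in WT were 77780001, 76610001, 76580001, 77560001 and 77600001 by their starts, with 2136 to 2830 counts in WT and 2636 to 3351 in InvF. The 5 highest began at 76880001, 77160001, 77300001, 77260001 and 77050001, with 9089 to 9698 counts in WT and 10941 to 12092 in InvF. All 5 of the highest lay in the left sub-domain, and 3 of the 5 lowest in the right one. Bin 76610001 to 76620000 had the highest InvF to WT ratio, 1.10 (1.04 to 1.16), and 1 of the WT steps seen with a 100 kb window lay at its start.

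While pairs inside changed little, the interior's partners outside did not stay the same. Of all counts of interior bins at least 20 kb apart, 48.4% stayed inside in WT and 50.7% in InvF. The share with the inverted interval was 14.3% in WT and 9.10% in InvF, a ratio of scaled counts of 0.601 (0.596 to 0.606). The share with the 490 kb between the inversion and the interior was 18.7% and 21.6%, a ratio of 1.10 (1.09 to 1.10). Contacts with the map before the inversion stood at 0.890 (0.879 to 0.902) and those with the map beyond 77860000 at 0.962 (0.955 to 0.969).

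What a value other than 0 marks in the authors' deposited InvF difference table is not stated. All 101 such interior values in the authors' deposited table had the sign of the log ratio of scaled InvF over WT counts, and for 29 of these pairs the counting interval of the ratio included 1. The share of such pairs was 4.5% over 179101 pairs of that table and 1.73% over its 21877 untouched pairs outside the interior, and inside the interior it was 0.954% (101 of 10585 pairs). In the authors' deposited table the shares of interior pairs were 0.794% (84 pairs) above 0 and 0.161% (17 pairs) below, against 1.29% and 0.439% of its untouched pairs and 2.12% and 2.39% of all its pairs. Of these 101, 93 lay in the left sub-domain, which holds 57.7% of the members, 8 across the boundary and 0 in the right sub-domain. The left sub-domain held 318567 of the 436349 interior counts in WT. Median WT counts per pair were 35 there, 15 across and 65 on the right. Neither this share of members nor the next allows for counts per pair. The second bin lay in the 150 kb before the boundary, a stretch chosen after the values were seen, in 54 of the 101, against 14.6% of all members. The largest value in the authors' deposited table, 3.41, belonged to 76500001 to 76510000 with 77430001 to 77440000, which had 21 counts in WT and 59 in InvF, a ratio of 2.26 after scaling (1.35 to 3.91). The next, 2.56, joined 76880001 to 76890000 with the boundary bin 77500001 to 77510000, which had 50 and 100 counts, a ratio of 1.61 (1.13 to 2.31). The lowest, -2.17, belonged to 76500001 to 76510000 with 77260001 to 77270000, with 61 and 45 counts and a ratio of 0.593 (0.394 to 0.886). These are single pairs of bins picked as extremes from 10585.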

How the data were processed

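Raw and balanced capture Hi-C maps of WT and InvF were analysed, with the raw maps of DelB and DelBs for the scale and the spread between libraries. Limb cells were separated with trypsin and crosslinked, and the ligated fragments were enriched with custom SureSelect probes and read from both ends, per the labels' protocols. Bowtie2 2.2.6 was the aligner and mm9 the build, per the submitters' processing notes. Raw maps were deposited as counts of read pairs between 10 kb bins, with a mapping quality of 30 named in the file names. Normalized maps were deposited as a signal that the authors made by KR balancing, as the file names say. The authors' deposited difference map is a score, and neither its formula nor any removal of duplicates is stated by the labels.

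Python 3.11.15 with numpy 2.4.6 and scipy 1.17.1 did the calculations, and matplotlib 3.10.9 drew the plots. Ratios have exact conditional binomial intervals and levels exact Poisson intervals. The intervals of the across to within fractions are normal on the log scale. Balanced values have no interval. Insulation used pairs at least 20 kb apart within 200 kb on each side, with inverted bins turned, and a required depth of 0.2 within 200 kb. Blocks had a pseudocount of 1 and needed 50 counts. The regions named followed a rule: sub-domains, boundaries, the 5 highest and lowest blocks and bins, and the 10 highest window pairs. Segments, parts of 490 kb, single bins at the boundary and the stretch around the lowest block were added after their values were seen. Members, lists and rules were chosen with earlier results of these data known. On simulated maps, 20 of 20 blocks changed 1.5 fold and 0 of 35 unchanged blocks passed 0.25 log2 units, a boundary was found with 0 bins of error, and a true ratio of 1.2 across it came out as 1.21. These maps held counting noise alone, and the run was set to stop unless all 20 were found. They check the code and cannot give the rate of false calls in the real maps. The sequence of these mm9 bins was not used here.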

Additional observations from a re-analysis of the deposited data

Results flagged for a closer look

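Counts from the interior in the deletion libraries stood out because both deletions, described as homozygous in the published work, remove it. Over the 10585 pairs DelB held 14664 counts, 2.34% of the scaled WT level (2.31% to 2.38%), and DelBs held 8107 counts, 1.24% of it (1.21% to 1.27%). Their source was not tested.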

How the results depend on the processing

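With 1 library per genotype no value has a replicate check, and levels depended on the kind of values used. The boundary minimum stayed within 10 kb of the position given, with 100, 200 and 400 kb windows and both kinds of values. The InvF to WT ratio by the total of all counts was 1.05 over the interior, 1.04 on the left, 1.04 on the right and 1.07 across, and with balanced values 1.02, 1.02 and 1.03 for the interior, left and across. With each distance on its own the ratio across was 0.993, and from 50 kb upward the interior was at 0.999 and the left at 0.997. Observed over expected with balanced values was 0.960 and 0.987 on the left, 0.952 and 0.956 on the right and 0.890 and 0.904 across, each for WT and InvF. Against the decay of the interior itself it was 1.08 and 1.09, 0.9997 and 1.01, and 0.727 and 0.727. From 50 kb upward it was 1.45 and 1.44, 1.21 and 1.21, and 1.21 and 1.21. Without the 5 bins on each side of the boundary the across to within ratio of InvF to WT was 0.976. The boundary score was -0.35 in WT and -0.36 in InvF with a 400 kb window, and -1.05 and -1.05 with balanced values. There were 4 boundaries in each library with a 100 kb window and 3 in each with a required depth of 0.1. Blocks past 0.25 log2 units numbered 7 with 50 kb blocks and 1 by the total of all counts. Among the remaining 38 values under alternatives, numbers of boundaries and of blocks equalled those reported. The others kept their side and lay within the counting interval, or the SD of untouched positions, of the values reported. Of these, leaving out bins under 25% of the median changed nothing because 0 interior bins were that low. No paired analysis was possible because there is 1 library per genotype.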
